A study of Mus musculus with 32 samples.

Results

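Macrophages and monocytes were followed in primary mouse melanomas through 39 genes that these cells transcribe. The genes were picked by symbol from the deposited tables of 50600 genes, and each symbol matched 1 gene identifier. They were read as 15 genes that macrophages and monocytes share, 13 genes of resident-like macrophages, 5 monocyte-like genes and 6 genes of activated macrophages. Of the 39 genes, 38 had enough reads to be tested between groups. The exception was Timd4, a receptor for dying cells, which had 3 counts or fewer in 21 of 32 tumours. The list is one of symbols, with no threshold on level, and it was drawn up with earlier results of these data known.

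Polyadenylated RNA was sequenced from 32 melanomas in 4 groups of 8, named by genotype and sex. All the mice carried Tyr::NrasQ61K, an oncogene that the tyrosinase promoter switches on in melanocytes, 1 null copy of the tumour suppressor gene Cdkn2a, and floxed copies of Cdh1, which encodes the adhesion molecule E-cadherin. Ecad mice (°/°) had no Cre recombinase. ΔEcad mice had Tyr::CreA/° according to the methods of the study, which deletes Cdh1 in melanocytes and is not directed at macrophages. The sample labels of the ΔEcad tumours write Tyr::NRAS/° in that position. Ages were not given in the labels. Whole tumours were sequenced, so fewer macrophages and less RNA per macrophage cannot be told apart.

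Total counts were between 24036333 and 63923086 per tumour. Levels are given as TPM, the transcript abundance scaled for gene length and library, and fold differences on the log2 scale from the edgeR quasi-likelihood test. That test gives no standard error (SE), so it was derived as the absolute log2 difference divided by the square root of the F value. A gene was called where the Benjamini-Hochberg adjusted p over 17717 genes was under 0.05 and the difference was over 2-fold. The targeted gene, Cdh1, had a log2 difference between ΔEcad and Ecad of -3.33 in males (SE 0.96, edgeR adjusted p 0.365) and -0.00 in females (SE 0.87, edgeR adjusted p 0.999), so RNA of the whole tumour did not separate the female genotypes. The library labelled ΔEcad male 2 had no count of Ddx3y, a gene of the Y chromosome, and 6.41 TPM of Xist, the RNA of the inactive X, against at most 0.2 TPM in Ecad males. In ΔEcad females the log2 difference of Ddx3y was 4.52 against Ecad females (SE 1.64, edgeR adjusted p 0.148). Against ΔEcad males it was -8.87 (SE 1.25, edgeR adjusted p 0.000828). ΔEcad female 3 had 1 count of Ptprc, the marker of all leukocytes (CD45). Both libraries were kept under their labels. Where a comparison rests on them, the count of all tested members above or below 0 is given with and without them. Other summaries of the members are given without them in part, and values for genes of other cells with them only.

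Macrophages are phagocytes that take up dying cells, present antigen and shape blood vessels and matrix. Their survival depends on CSF1R, the receptor for the growth factors CSF1 and IL-34. Some settle in the skin early in life and maintain themselves, while others are replenished from blood monocytes that leave the marrow through the chemokine receptor CCR2. Once in a tumour they take on mixed programmes of lipid handling, matrix repair and nitric oxide production, and melanomas are known to hold many of them.

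Macrophage RNA was found in nearly every tumour. Csf1r was at 11.4 TPM in the lowest Ecad male, 39.02 in the median and 87.5 in the highest. In the same order it was at 2.74, 27.7 and 84.2 TPM in Ecad females. The ΔEcad males had 7.93, 47.3 and 230.1 TPM, and the ΔEcad females 4.96, 29.95 and 68.4 TPM. The groups overlapped throughout, and the highest tumour, ΔEcad male 7, was far above the second ΔEcad male at 120.2 TPM. Csf1r overlaps Hmgxb3 on the other strand, and the counting was not stated to use the strand, so reads of the overlap cannot be told apart. Folr2, Stab1, Maf and Ms4a6c also overlap genes on the other strand, and Fcgr3, Ctss and Mrc1 each overlap a gene on their own strand.

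Genes of the lysosome were among the most abundant shared genes. Lyz2, which encodes lysozyme, had a median of 983 TPM over the 32 tumours and reached 12822 TPM in ΔEcad female 8. The other ΔEcad females had at most 1586 TPM of it. Ctss, the protease cathepsin S that prepares antigen, had a median of 502.6 TPM and reached 3262 TPM in Ecad male 4. Cd68, a lysosomal glycoprotein used to stain macrophages, was at 415.5 TPM in the median Ecad male, 149.9 in the median Ecad female, 214.5 in the median ΔEcad male and 347.8 in the median ΔEcad female. Its ranges in the groups overlapped, from 152.6 to 1241 TPM in Ecad males and from 38.6 to 623.7 TPM in Ecad females. Adgre1, which encodes the F4/80 antigen, was lower than these, with group medians of 14.2, 9.29, 23.1 and 13.6 TPM in Ecad males, Ecad females, ΔEcad males and ΔEcad females. The medians of the other shared genes over all tumours were 3.89 TPM for the scavenger receptor Msr1, 7.18 for Fcgr1 and 72.3 for Fcgr3, both receptors for antibodies, 63.9 for Laptm5 and 96.5 for Mpeg1, a pore-forming protein of phagosomes. The adaptor genes Tyrobp and Fcer1g were higher, at 220 and 171.8 TPM, and Spi1, Cybb and Aif1 were at 27.2, 12.8 and 9.17 TPM. Fcgr3 belongs to a family of similar genes whose reads could be split between members.

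Among the resident-like genes the complement C1q chains led. C1qa, C1qb and C1qc lie side by side on chromosome 4 and encode the 3 chains of 1 secreted protein that marks dying cells for uptake. C1qa was at 168.9, 451.3 and 931.5 TPM (lowest, median, highest) in Ecad males and 63.4, 185.3 and 1981 TPM in Ecad females. In ΔEcad males it was at 208.2, 618.4 and 1808 TPM, and in ΔEcad females at 0.0, 253.2 and 1743 TPM. A single high tumour, Ecad female 7 or ΔEcad female 5, set the top of each female range, and the second highest was at 512.4 or 580.1 TPM.

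The proportions of the 3 chains were not equally narrow. In the 31 tumours other than ΔEcad female 3, the ratio of C1qb to C1qc was between 0.92 and 2.93 with a median of 1.8, and its log2 value had an SD of 0.36. The ratio of C1qa to C1qc had an SD of 0.4. The ratio of C1qa to C1qb was wider, between 0.393 and 4.14 (SD of the log2 ratio, 0.61), than that of Adgre1 to Csf1r, which are not chains of 1 protein (SD 0.49). Trem2 varied from 0.0964 to 16.6 times Csf1r (SD 1.68) and Cd163 had an SD of 2.03 against Csf1r over the 30 tumours in which both were above 0.

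Scavenger receptors of resident-like macrophages were less abundant. Mrc1, the mannose receptor CD206, was at 17.85 TPM in the median Ecad male, 6.28 in the median Ecad female, 14.7 in the median ΔEcad male and 15.8 in the median ΔEcad female. Its highest value was 147.4 TPM, in ΔEcad male 7. Cd163, which takes up haemoglobin bound to haptoglobin, had group medians of 6.85, 1.17, 1.75 and 3.49 TPM in the same order. ΔEcad male 7 again stood highest for Cd163, at 51.8 TPM, where the second ΔEcad male was at 5.83 TPM. Marco, Vsig4 and Timd4 had medians over all tumours of 0.365, 1.12 and 0.075 TPM, and they are known from macrophages of the liver, the peritoneum and lymphoid organs.

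The monocyte-like genes were low in most tumours and high in a few. Cd14, the co-receptor for bacterial lipopolysaccharide, had a median of 25.3 TPM, and Ms4a6c, a membrane protein of monocytes, 12.2 TPM. Ccr2, Cx3cr1 and Ly6c2 had medians of 1.79, 0.665 and 1.6 TPM. Ly6c2 encodes the Ly6C antigen of inflammatory monocytes. Reads of its near-identical neighbour Ly6c1 could be counted with it.

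The activated genes held the most abundant members of all. Lgals3, which encodes galectin-3, was between 542.9 and 5449 TPM, and Apoe, the lipid carrier apolipoprotein E, was between 112.5 and 9687 TPM. Both lowest values were those of ΔEcad female 3, which had no count of Tyrobp or Ctss. These are levels of whole tumours, and the part of cells other than macrophages in them was not tested. Arg1, the arginase that consumes arginine, exceeded Nos2, the nitric oxide synthase that uses the same substrate, in 27 of the 29 tumours other than ΔEcad female 3 in which Nos2 passed 3 counts. Nos2 was at or under 1.47 TPM in the median tumour of every group, yet it reached 120.3 TPM in Ecad female 4, 87.0 in ΔEcad male 4 and 73.1 in Ecad male 4. These 3 tumours also had the highest summed level of 6 neutrophil genes in their groups, at 9230, 3750 and 5290 TPM, against medians of 61.6, 163 and 185 TPM in Ecad females, ΔEcad males and Ecad males. The part of neutrophils in the Nos2 level was not tested.

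**Figure D1:**
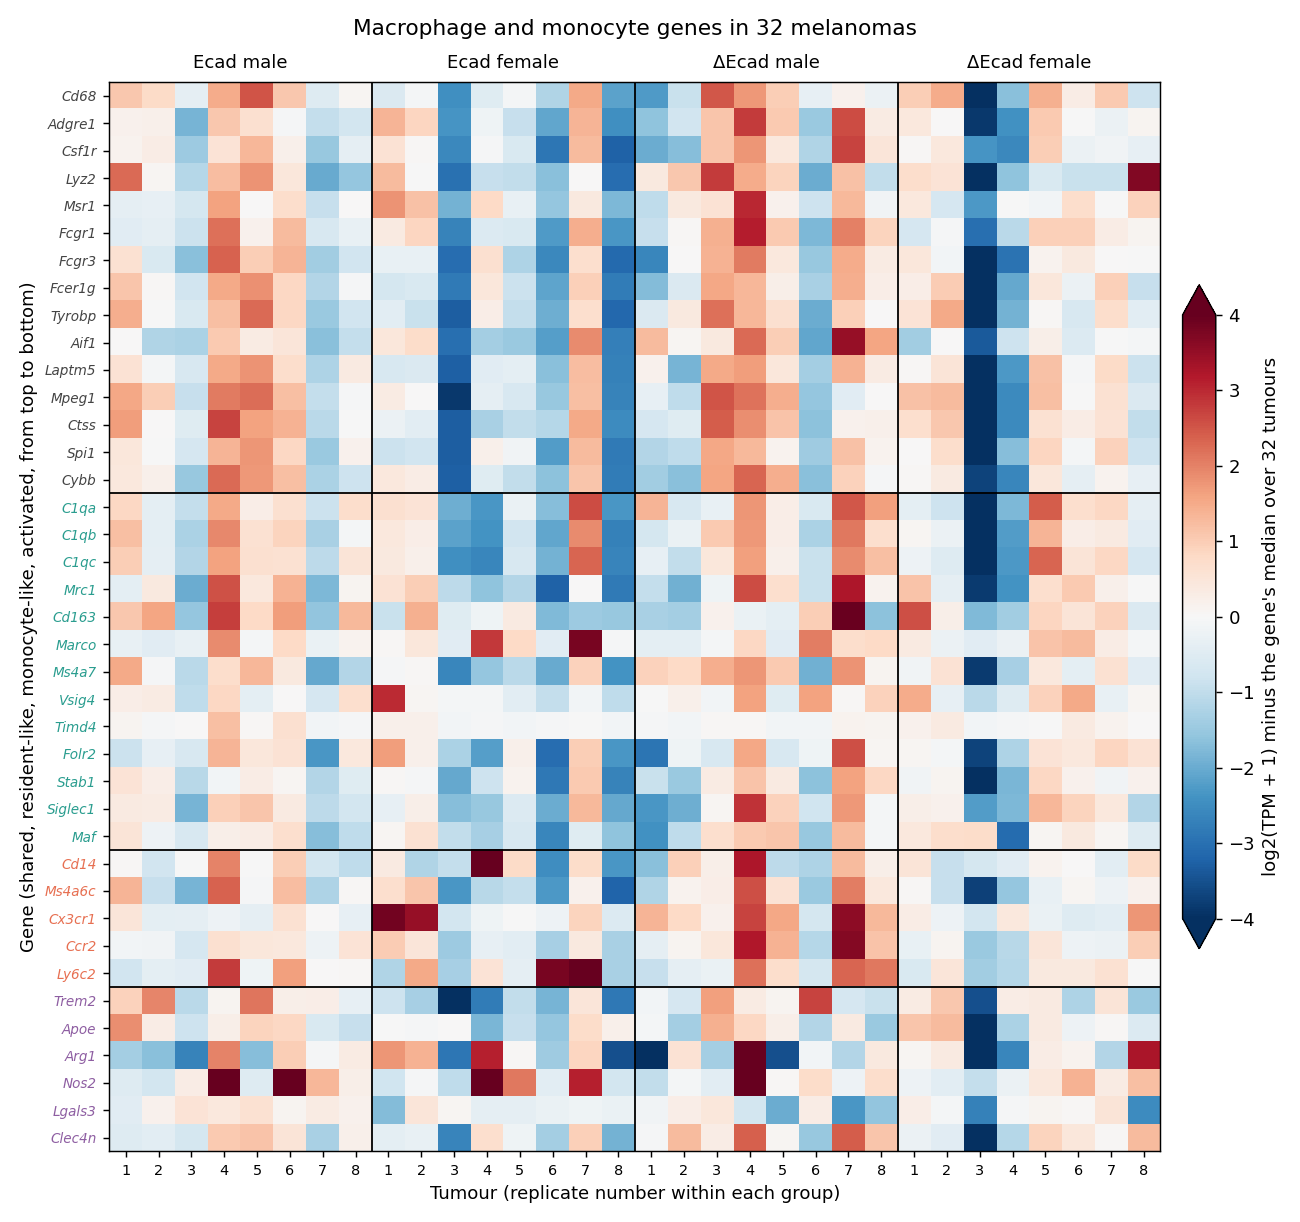
Level of each of the 39 genes (vertical axis, ordered as shared, resident-like, monocyte-like and activated) in each of the 32 tumours (horizontal axis, replicate number within each group), coloured by log2(TPM + 1) minus the median of the gene over the 32 tumours. Shared and resident-like genes move together from tumour to tumour, ΔEcad female 3 is low in most of them, and Maf is not low there.

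High values came together in a few tumours. ΔEcad male 7 had the highest level of 11 of the 39 genes, among them Csf1r, Mrc1, Cd163, Folr2 and Stab1, which encode receptors of resident-like macrophages, and Ccr2. In that tumour 7 melanocytic genes summed to 31.5 TPM, where the median tumour had 27700 TPM, and 4 mast cell genes to 1750 TPM, the most in any tumour. ΔEcad male 4 led in 7 genes, including Adgre1, Fcgr1, Cybb and Siglec1, and Ecad male 5 led in 6, including Cd68, Tyrobp and Spi1. Each of these tumours belongs to a male group, while Ecad female 7 led in C1qa, C1qc, Marco and Ly6c2.

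The shared likeness was measured against Csf1r across the 32 tumours, over 17716 other genes and with p-values from 100000 permutations. By Spearman correlation, 28 of the 37 other tested members followed Csf1r at an adjusted p under 0.05, against 7.62% of all genes. By Pearson correlation, 35 of 37 did, against 7.37%. The median Spearman rho was 0.74 for the members and 0.012 for all genes. The points are tumours, and the share of leukocytes in a tumour bears on all of these genes at once.

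Adgre1 was the closest member, with rho 0.93 and r 0.82 (permutation p 1e-05 for both, the smallest these permutations can give), and r was 0.83 without Ecad female 8 and Ecad female 6, the tumours farthest from the median of Csf1r. Cybb, the catalytic subunit of the phagocyte oxidase, had rho 0.93, and Siglec1, the sialic acid receptor CD169, rho 0.90. Spi1, which encodes PU.1, the transcription factor that sets the myeloid lineage, had rho 0.87. Among the monocyte-like genes, Ccr2 (rho 0.79) and Ms4a6c (rho 0.74) also followed.

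The members that did not follow Csf1r by Spearman were Cd14, Marco, Cd163, Trem2, Vsig4, Cx3cr1, Arg1, Nos2 and Lgals3. Lgals3 had rho -0.19, the only negative value among the 37. Cx3cr1, the fractalkine receptor, had rho 0.40 (permutation p 0.0256, adjusted p not under 0.05). Of the 6 activated genes, Clec4n, which encodes the fungal receptor dectin-2, and Apoe followed Csf1r by Spearman, and the other 4 did not. By Pearson, Trem2 and Arg1 also followed (r 0.491 for both, adjusted permutation p 0.045 and 0.0486). Only Nos2 and Lgals3 of the 37 members did not follow by Pearson.

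**Figure D2:**
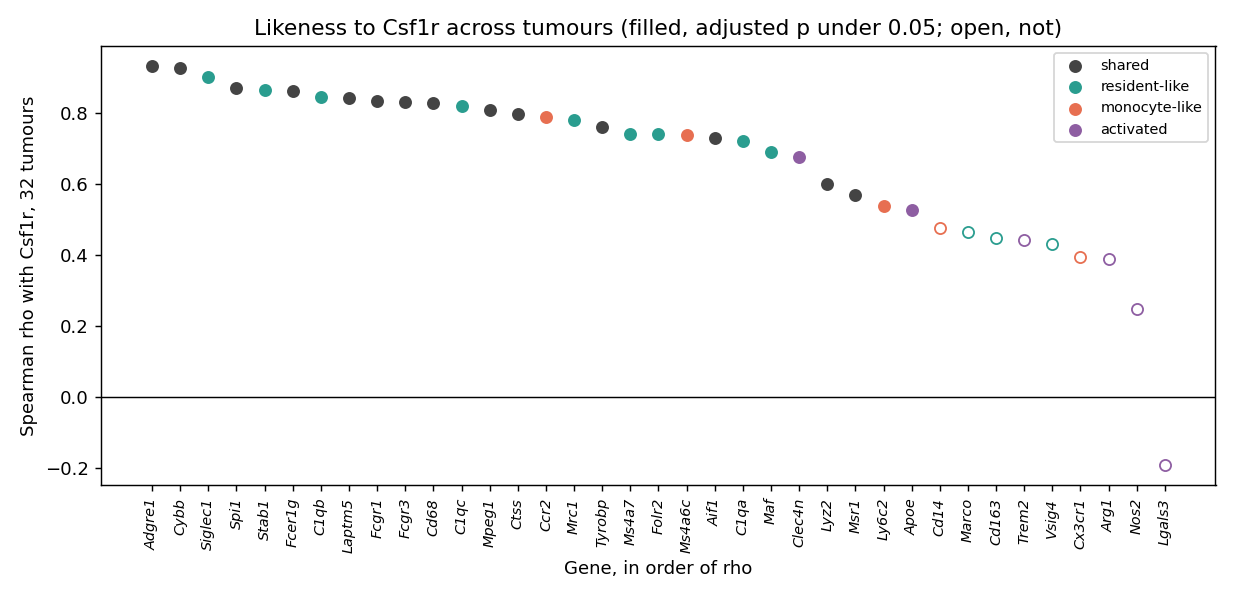
Spearman rho with Csf1r across 32 tumours (vertical axis) for the 37 other tested members in order of rho (horizontal axis). Filled points have an adjusted p under 0.05 over 17716 genes and open points do not, and most of the open points are activated, monocyte-like or scavenger receptor genes at the right.

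Outside the list, the 10 genes most like Csf1r by rho were C3ar1, Clec4a1, Nfam1, Clec4a3, Tm6sf1, Cyth4, Nckap1l, Inpp5d, Fermt3 and Dok2, with rho from 0.94 down to 0.92. C3ar1 encodes the receptor for complement fragment C3a, and Nckap1l and Fermt3 act in the cytoskeleton and integrins of blood cells. Genes of other leukocytes followed Csf1r in part. All 7 T cell genes did, with rho from 0.57 to 0.82, as did 3 of 4 natural killer genes (0.26 to 0.78), 5 of 6 dendritic cell genes (-0.12 to 0.77) and 3 of 4 mast cell genes (0.47 to 0.50). Of 5 tested neutrophil genes 1 did (-0.01 to 0.68), and of 3 B cell genes 0 (0.34 to 0.46). Ptprc had rho 0.80. With group means subtracted, 31 of the 37 members followed Csf1r, against 6.23% of all genes. Without the 2 farthest tumours 27 did, against 5.77% of all genes.

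Because many members moved together, the promoters of the list were searched for GAGGAAGT, a word bound by PU.1, on both strands from 250 bases before to 50 bases after the start in RefSeq (GRCm38.p6). Promoters of 27 members were at hand, and 3 of them (11.1%) held the word, those of C1qc, Ctss and Ly6c2, against 3.69% of 27025 genes. Csf1r, Adgre1, Spi1, C1qa, Maf, Nos2, Msr1, Tyrobp, Cd14, Siglec1, Arg1 and Clec4n were not searched. The stretches are shown because their genes followed Csf1r, with rho 0.82 for C1qc, 0.80 for Ctss and 0.54 for Ly6c2. They are written 5′ to 3′ along the gene, with the word or its reverse complement in capitals. C1qc is at chr4:136893062-136893149 on the minus strand, Ctss at chr3:95526744-95526793 on the plus strand, where the word touches the start, and Ly6c2 at chr15:75112032-75112119 on the minus strand. Ly6c2 held the word at a second place nearer the start, at chr15:75111930-75111985. A match of letters is a description and not a binding site.
C1qc: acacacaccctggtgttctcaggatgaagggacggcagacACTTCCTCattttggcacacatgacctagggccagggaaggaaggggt
Ctss: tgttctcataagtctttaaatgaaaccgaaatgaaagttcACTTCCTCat
Ly6c2: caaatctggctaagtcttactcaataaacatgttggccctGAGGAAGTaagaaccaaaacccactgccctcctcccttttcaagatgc
Ly6c2, nearer the start: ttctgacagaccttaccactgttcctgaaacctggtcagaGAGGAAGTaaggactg

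The first comparison asked how the genes differed with Cdh1 deletion in females. None of the 38 tested members was called by edgeR, where 1.2% of all genes were, and 3 had an unadjusted p under 0.05, all of them lower in ΔEcad, where 4.13% of all genes were lower with such a p. DESeq2 called 0 members (7.23% of genes) and limma 0 (0.00564%). The median log2 difference of the members was 0.249, beside -0.018 over all genes, and 27 of 38 were above 0, beside 48.4% of all genes. By group, 12 of 15 shared and 10 of 12 tested resident-like genes were above 0, while 4 of 5 monocyte-like genes were below it. The median was -0.02 without ΔEcad female 5 and 0.76 without Ecad female 7. Without ΔEcad female 3 it was 0.44, and 29 of 38 members were above 0, beside 46.9% of all genes. With keratinocyte and melanocytic levels as covariates the median was -0.09.

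The medians of genes of other cells also differed between the female groups. The 7 keratinocyte genes summed to 1.32 TPM in the median Ecad female and 6100 TPM in the median ΔEcad female, and all 7 had log2 differences above 0, from 4.33 to 7.89, none of them called by edgeR. The 4 mast cell genes summed to 3.78 and 137 TPM in the same order, with log2 differences from 3.37 to 4.32, none called. The Langerhans cell gene Cd207 was called, at 7.15 (SE 1.67, edgeR adjusted p 0.0394). All 6 fibroblast genes were above 0, and all 7 melanocytic genes and the 5 tested neutrophil genes were at or below 0. ΔEcad female 3 is part of these fits, and none without it is given for these genes. Its fibroblast genes summed to 9170 TPM, where the next ΔEcad female had 1870 TPM, and its neutrophil genes to 1.11 TPM, the lowest of all tumours. Beyond the fit with covariates, the part of these cells in the members' values was not tested.

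The 3 genes with the smallest p in females were Ly6c2, Cx3cr1 and Nos2. Ly6c2 was at 0.03, 1.89 and 42.7 TPM (lowest, median, highest) in Ecad females, and in ΔEcad females at 0.0, 1.97 and 2.94 TPM, a log2 difference of -2.89 (SE 1.17, edgeR adjusted p 0.198). The medians were nearly equal, and the highest Ecad females were Ecad female 7 and Ecad female 6, at 42.7 and 35.3 TPM. The log2 difference was -0.38 with limma, -1.42 with the replicate block and -1.91 with marker levels as covariates. In Ecad females Cx3cr1 was at 0.0, 0.555 and 23.3 TPM, and in ΔEcad females at 0.0, 0.41 and 4.61 TPM, a log2 difference of -2.44 (SE 1.09, edgeR adjusted p 0.258), and it was -1.58 without Ecad female 1, at 23.3 TPM, and -1.26 with limma. Nos2 had a log2 difference of -3.32 (SE 1.48, edgeR adjusted p 0.258), which was -1.25 without Ecad female 4, -0.47 with limma, -0.87 with the replicate block, -1.11 with DESeq2 and -1.95 with the covariates. The groups overlapped for all 3 genes. Among the genes above 0, Lyz2 had a log2 difference of 1.42 (SE 0.79) and Trem2 1.35 (SE 0.68), with edgeR adjusted p of 0.416 and 0.343.

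In males, the 3 genes with the smallest p were Cx3cr1, which was also among those in females, Ccr2 and Aif1. No member was called by edgeR, as for 0.0% of all genes, and 3 members had an unadjusted p under 0.05, all higher in ΔEcad, where 7.19% of all genes were higher with such a p. DESeq2 called 0 members (0.119% of genes) and limma 0 (0.0%). The median log2 difference was 0.49, beside 0.113 over all genes, and 29 of 38 were above 0, beside 59.1% of all genes. Without the library labelled ΔEcad male 2 the median was 0.55 and 32 of 38 were above 0. The share of all genes above 0 in that fit is not given, so the count is not read as a trait of the members. The median was 0.94 without Ecad male 4, 0.23 without ΔEcad male 4 and 0.266 without ΔEcad male 7. In the last case 1 member had an unadjusted p under 0.05, and the share of all genes with such a p is not given.

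Monocyte receptors led in males. Cx3cr1 was at 0.27, 0.395 and 1.56 TPM in Ecad males and 0.02, 3.2 and 18.8 TPM in ΔEcad males, a log2 difference of 3.08 (SE 1.12, edgeR adjusted p 0.426). Of the 8 ΔEcad males, 6 were above every Ecad male and 1, ΔEcad male 6, was below every one. Ccr2 was at 0.74, 2.13 and 3.34 TPM in Ecad males and 0.26, 3.94 and 34.1 TPM in ΔEcad males, a log2 difference of 2.07 (SE 0.87, edgeR adjusted p 0.446). The top 2 values of Ccr2 were those of ΔEcad male 7 and ΔEcad male 4, and 4 ΔEcad males were above every Ecad male. Aif1, the cytoskeletal protein IBA1, had a log2 difference of 2.05 (SE 0.86, edgeR adjusted p 0.448). With limma the 3 differences were 1.84, 1.22 and 1.29, and with the covariates that of Ccr2 was 1.07. Cx3cr1 overlaps 9 other annotated genes, so reads shared with them cannot be told apart, and both receptors are also made by T cells or natural killer cells. The summed level of 7 T cell genes was at 18.3 TPM in the median Ecad male and 31.8 TPM in the median ΔEcad male, and its part in the 2 receptors was not tested. The 7 keratinocyte genes summed to 4110 and 434 TPM in the same order.

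**Figure D3:**
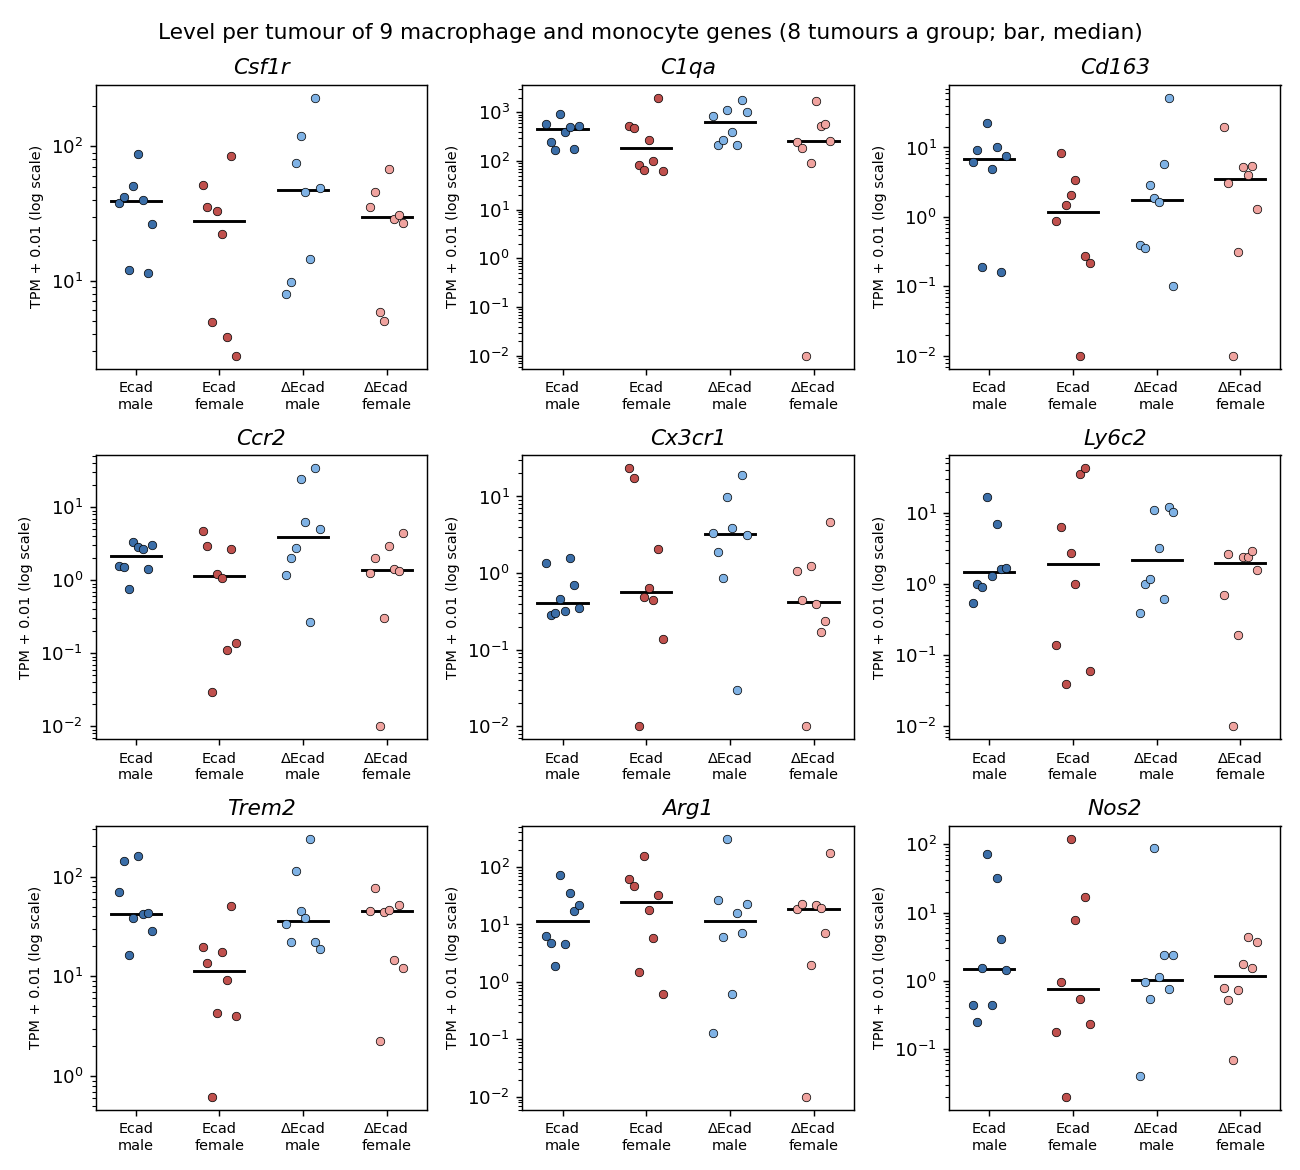
TPM + 0.01 on a log scale (vertical axes) of 9 genes in each tumour of the 4 groups (horizontal axes, 8 points a group, the bar marking the median). Cx3cr1 and Ccr2 reach their male maximum in ΔEcad male 7, at 18.8 and 34.1 TPM, Trem2 is lower in most Ecad females, and all groups overlap for every gene shown.

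Sex was then compared within each genotype, and these comparisons use the same tumours as those of genotype. In Ecad tumours, edgeR called 0 members (0.0508% of genes), and 2 had an unadjusted p under 0.05, Trem2 lower and Cx3cr1 higher in females, where 10.3% of all genes were lower and 5.71% higher with such a p. DESeq2 called both (5.77% of genes) and limma called Trem2 (0.649% of genes). Trem2, a lipid receptor listed here with the genes of activated macrophages, did not follow Csf1r by Spearman (rho 0.44) but did by Pearson (r 0.49). Its highest tumour, ΔEcad male 6 at 238.6 TPM, had 14.4 TPM of Csf1r, and the part of other cells in the Trem2 level was not tested. Trem2 was at 16.4, 42.5 and 162.1 TPM in Ecad males and 0.61, 11.3 and 50.45 TPM in Ecad females. Of the 8 Ecad females, 5 were below every Ecad male, and Ecad female 7 alone was above the male median. The log2 difference was -2.05 (SE 0.69), with adjusted p of 0.142 by edgeR, 0.0282 by DESeq2 and 0.0491 by limma. For Cx3cr1 the log2 difference was 2.93 (SE 1.11), with adjusted p of 0.181 by edgeR and 0.0408 by DESeq2, and its highest tumours were Ecad female 1 and Ecad female 2, at 23.3 and 17.4 TPM. It was 1.05 with limma and 1.34 with the replicate block.

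Over the list, 27 of 38 members were lower in Ecad females than in Ecad males, beside 46.1% of all genes, with a median log2 difference of -0.576, which was -1.23 without Ecad female 7 and -0.3 without Ecad male 4. When ΔEcad female 3 and ΔEcad male 2, which set only the shared estimate of the spread here, were left out of the fit, 8 members were lower and 1 higher at an unadjusted p under 0.05, and 0 were called. The share of all genes with such a p in that fit is not given, so the count is not read as a trait of the members. The shared genes had the lowest median of the 4 sets, at -1.21, with Ctss at -1.58 (SE 0.82, edgeR adjusted p 0.345), Tyrobp, the signalling adaptor of TREM2, at -1.46 (SE 0.73, edgeR adjusted p 0.327) and Fcer1g, the common chain of Fc receptors, at -1.24 (SE 0.64, edgeR adjusted p 0.341). The monocyte-like genes had a median of 0.944. Keratinocyte genes moved with this comparison too. The summed level of 7 of them was at 4110 TPM in the median Ecad male and 1.32 TPM in the median Ecad female, and its part was not tested beyond the fit with marker levels as covariates, in which Trem2 was at -1.66 with an edgeR adjusted p of 0.966.

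In ΔEcad tumours, all 38 tested members were lower in females, beside 54.9% of all genes, and the median log2 difference was -0.812. None was called by edgeR (0.0395% of genes), DESeq2 (0.135%) or limma (0.0339%), and 3 had an unadjusted p under 0.05, where 5.49% of all genes were lower with such a p. The 3 were Ccr2 at -2.45 (SE 0.88, edgeR adjusted p 0.484), Aif1 at -2.39 (SE 0.88, edgeR adjusted p 0.5) and Cx3cr1 at -2.59 (SE 1.09, edgeR adjusted p 0.539). All 8 ΔEcad females were below the male median of Aif1, at 21.2 TPM. Without ΔEcad female 3, 36 of 38 were lower and the median was -0.621, beside 59.2% of all genes. Without the library labelled ΔEcad male 2, 37 of 38 were lower, and by DESeq2 also 37, and for neither is the share of all genes given.

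Genes of other leukocytes were also lower in the fit of ΔEcad females against males. These fits include ΔEcad female 3, which had 1 count of Ptprc and no count of most T cell, dendritic cell and natural killer genes. No fit without it is given for them. Ptprc was at -1.33 (SE 0.8, edgeR adjusted p 0.643). All 7 T cell genes were below 0, from -1.46 to -0.65, as were all 6 dendritic cell genes, from -1.94 to -0.09, and all 4 natural killer genes, from -1.41 to -0.83, and none of these was called by edgeR. The T cell genes summed to 31.8 TPM in the median ΔEcad male and 15.3 TPM in the median ΔEcad female, and the keratinocyte genes to 434 and 6100 TPM. The part of these cells in the members' values was not tested.

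The difference of the genotype effect between the sexes was tested as an interaction, the female minus the male effect. EdgeR called 0 members and 0.0% of all genes, and 4 members were below 0 with an unadjusted p under 0.05, where 6.94% of all genes were. DESeq2 called 1 member (6.91% of genes) and limma 0 (0.0%). The member was Cx3cr1, with a log2 difference of -5.52 (SE 1.56, edgeR adjusted p 0.061), and -5.5 with an adjusted p of 0.00313 by DESeq2. EdgeR called it when any 1 of Ecad female 5, ΔEcad female 3, ΔEcad female 4, ΔEcad female 8 or ΔEcad male 3 was left out, with adjusted p from 0.0347 to 0.0489. The difference was -3.1 with limma (adjusted p 0.219), -4.2 with the replicate block (edgeR adjusted p 0.272) and -4.54 with marker levels as covariates (edgeR adjusted p 0.553). The other 3 were Aif1 at -2.5 (SE 1.2), Cd14 at -2.14 (SE 1.03) and Ly6c2 at -3.29 (SE 1.59), with edgeR adjusted p of 0.27, 0.27 and 0.274, and Cd14 was at -0.55 without Ecad female 4, its highest tumour at 427.7 TPM, and Aif1 at -1.53 without Ecad female 7. With limma they were at -0.93, -0.32 and -0.89, with the replicate block at -1.49, -0.78 and -2.09, and Cd14 and Ly6c2 were at -1.39 and -1.21 with the covariates. All 5 monocyte-like genes were below 0, with a median of -2.14, while 10 of 15 shared genes were above it. Over the list, 22 of 38 were below 0, beside 58.6% of all genes. The medians were -0.248 over the members and -0.164 over all genes, and that of the members was -0.57 without Ecad male 4, 0.31 without Ecad female 7, 0.06 without ΔEcad male 4, 0.04 without ΔEcad male 7 and 0.3 with limma. Without ΔEcad female 3, 20 of 38 were below 0, the median was -0.058, and 2 were lower at an unadjusted p under 0.05 by edgeR. Without the library labelled ΔEcad male 2 the values were 23 of 38, -0.314 and 3. The shares of all genes in these fits are not given. All 7 keratinocyte genes were above 0 in this comparison, from 5.95 to 10.6, none of them called, and their part was not tested beyond the covariates.

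**Figure D4:**
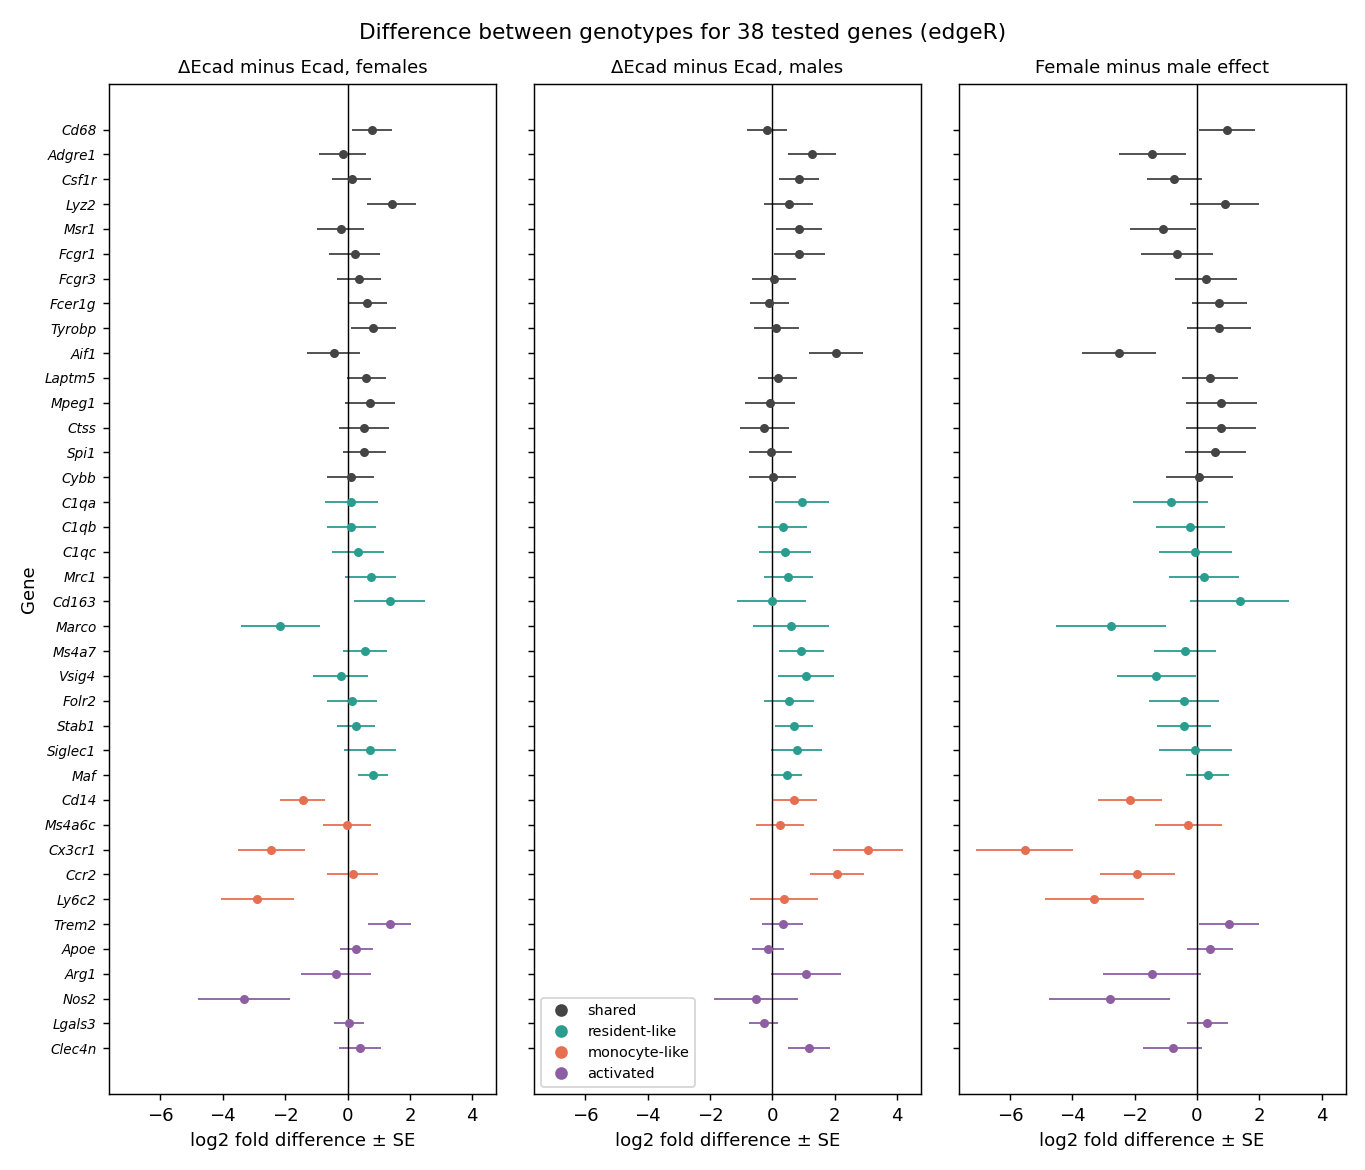
Log2 difference with its standard error (horizontal axes) for the 38 tested genes (vertical axis), as ΔEcad minus Ecad in females and in males and as the female minus the male effect. No gene passed the edgeR threshold in any panel, and Cx3cr1 lies at -2.44, 3.08 and -5.52 from left to right.

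The remaining members, like those above, did not pass the edgeR test in any comparison. Csf1r had log2 differences of 0.13 in females and 0.86 in males (SE 0.62 and 0.63). C1qa was at 0.12 and 0.96 (SE 0.85 and 0.86), C1qb at 0.12 and 0.33, and Cd163 at 1.35 and -0.02 (SE 1.13 and 1.11). Apoe was at 0.28 and -0.13 (SE 0.52 for both) and Lgals3 at 0.05 and -0.28 (SE 0.47 for both). Marco, a scavenger receptor at low level, was at -2.16 and 0.6 (SE 1.27 and 1.23), and Vsig4, a complement receptor, at -0.22 and 1.08. Ms4a7 was at 0.55 and 0.93, Ms4a6c at -0.03 and 0.25, Clec4n at 0.39 and 1.18, and Maf, a transcription factor of resident macrophages, at 0.81 and 0.46. In males, 7 ΔEcad tumours were below the Ecad median of Cd163, and only ΔEcad male 7, at 51.8 TPM, was above it. Without that tumour the resident-like genes were between -1.89 and 1.21 in males, against -0.02 and 1.08 with it. In the interaction their highest value was then 3.24, against 1.37, and 1 was above 0 with an unadjusted edgeR p under 0.05. None was called, and the value of Cd163 alone in these fits is not given.

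Other genes of the pathway were read from a list of 18 ligands, receptors and transcription factors, of which 17 were tested and Csf2 was not. In females, 1 of 17 was called by edgeR, beside 1.2% of all genes, and in males 0 of 17, beside 0.0%. The 7 tested ligands all had log2 differences above 0 in both sexes, beside 48.4% of all genes in females and 59.1% in males, and none of them was called. The called gene was Cebpa, a transcription factor of myeloid cells that keratinocytes also make. It was at 6.07, 25.3 and 42.2 TPM (lowest, median, highest) in Ecad females, and in ΔEcad females at 19.2, 57.8 and 343.2 TPM, where it rose by 2.52 on the log2 scale (SE 0.63, edgeR adjusted p 0.0452). Its top tumour, ΔEcad female 2, also had the highest sum of keratinocyte genes of all tumours, 32400 TPM. The call was lost with marker levels as covariates (log2 difference 0.86, edgeR adjusted p 0.735), when only the tumours compared were fitted (adjusted p 0.176), with the replicate block (0.126), with limma (0.17) and in 10 of the 16 fits that left out 1 tumour of either group, and it was kept with DESeq2 (0.000797). Csf1, the main growth factor for macrophages, had a log2 difference of 2.12 in females (SE 0.66, edgeR adjusted p 0.0806), and Ccl7, a ligand of CCR2, of 2.05 in females and 1.82 in males (SE 0.82 for both). Without ΔEcad female 3, which had the highest level of both ligands, the female differences were 0.41 for Csf1 (SE 0.45, edgeR adjusted p 0.722) and 0.88 for Ccl7 (SE 0.74, edgeR adjusted p 0.608). Ccl12, another ligand of CCR2, was at 2.48 in males (SE 1.02, edgeR adjusted p 0.443).

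One tumour stood apart from the 31 others. ΔEcad female 3 had 0 counts of 22 of the 39 genes, where no other tumour had more than 3 genes at 0, and it was the lowest tumour for 33 of them. Ctss and Tyrobp, at medians of 502.6 and 220 TPM, had no count in it, nor did C1qa, C1qb and C1qc. Spi1 had 2 counts. Of the 7 T cell genes, 6 were at 0 there and Trac had 54 counts (124% of the median). The keratins Krt5, Krt14 and Krt1 were at 0, while Krt10 had 97 counts (3.46% of the median) and Trp63 had 70 (68.2%). The haemoglobin genes were at 0, and 5 endothelial genes summed to 0.48 TPM against a median of 86.5 TPM.

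The list was not empty in that tumour. Maf was at 24 TPM, 171% of the median over all tumours and the highest value among ΔEcad females. Cd14 was at 15.3 TPM (60.4% of the median), Csf1r at 5.84 TPM from 406 counts (17.0%) and Lgals3 at 542.9 TPM (15.2%). Apoe was at 112.5 TPM (4.24%) and Cd68 at 5.7 TPM (2.62%). The 7 melanocytic genes were between 17.0% and 109% of their medians, with Dct at 1917 TPM. The fibroblast genes were divided. Col1a1, Col1a2, Col3a1 and Pdgfra were at 912% to 1270% of their medians, with Col1a1 at 4361 TPM, while Dcn and Lum, at 2.24 and 0.11 TPM (3.52% and 0.483%), were lower than in any other tumour. Several ligands of monocytes had the highest level of all tumours in it, with Csf1 at 645.9 TPM against a median of 26.1 TPM, Ccl7 at 318.3 against 18.8 and Cx3cl1 at 156.6 against 7.7. Ccl8 and Ccl12, which belong to the same chemokine cluster, were at 1.51 and 0.0 TPM against medians of 319 and 8.38 TPM.

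**Figure D5:**
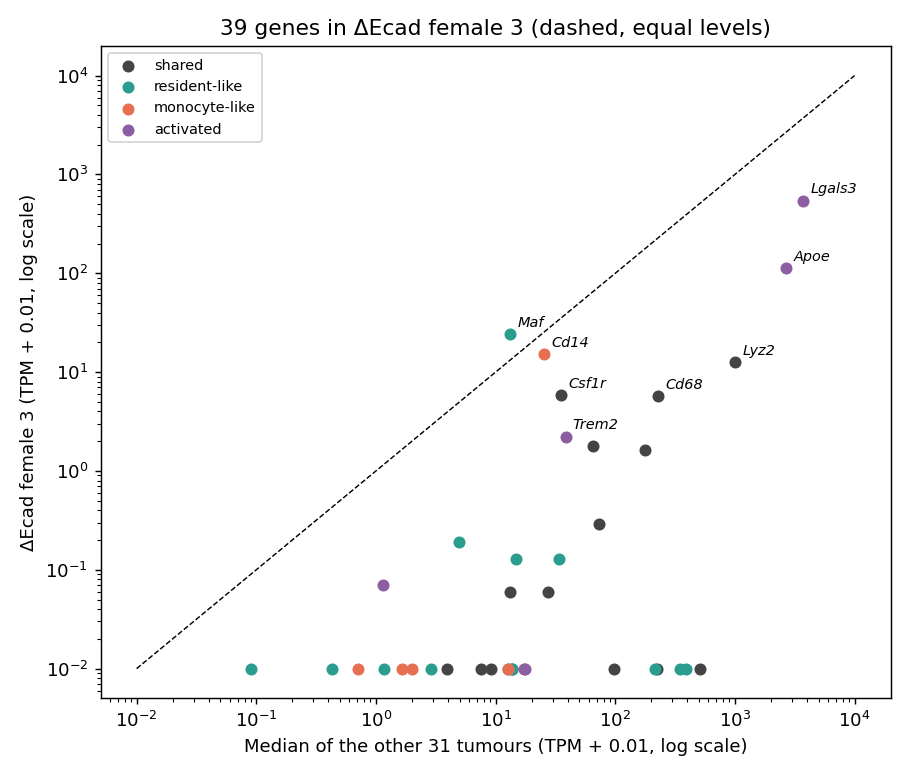
TPM + 0.01 in ΔEcad female 3 (vertical axis, log scale) against the median of the other 31 tumours (horizontal axis, log scale) for the 39 genes, with a dashed line at equal levels. Maf lies above the line, Cd14 just below it, and the genes along the bottom had no count in ΔEcad female 3.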

How the data were processed

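RNA from 32 tumours had been made into stranded polyA libraries, mapped with STAR to mm10 (GRCm38.p5) with GENCODE M13, and deposited by the authors as raw counts per gene and as TPM. FastQC 0.11.5 is named in the submitters' processing notes. The study describes batch correction where applicable, without naming these tumours. Symbols and coordinates came from GENCODE M21. Members and lists were chosen with earlier results of these data known.

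Counts were tested with edgeR 4.0.16 (TMM factors, filterByExpr, robust, two-sided) in 1 model of 32 tumours, which had a common dispersion of 0.624. Members were named if called, if on a fixed list of 13 (Csf1r, Adgre1, Cd68, Cd163, Mrc1, C1qa, Ccr2, Ly6c2, Cx3cr1, Trem2, Apoe, Arg1, Nos2), or if among the 2 most abundant or the 2 with the smallest p of their set, and pathway genes if called or among the 2 with the smallest p in a comparison. Of the pathway list, 1 gene is not reported here. Correlations used log2 CPM with a prior count of 1. Alternatives were DESeq2 1.42.0, limma 3.58.1 (voom), other factors, filters and samples, marker covariates, a replicate block and each tumour left out. Scripts were tested on simulated data. The labels do not say whether tumours came from separate mice, so p-values measure the spread between tumours. Versions were scipy 1.17.1, pandas 2.3.3, numpy 2.4.6, R 4.3.3, matplotlib 3.10.9 and Python 3.11.15. Counts of 0 allow up to 3 counts, for counting error only.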

Additional observations from a re-analysis of the deposited data

Results flagged for a closer look

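In 68 groups of 8 values, a tumour was looked for whose gap to its nearest neighbour was large beside the whole range of the group, which chance alone does in about 1 of 20 groups. It was found in 10 groups, and each time the tumour was ΔEcad female 3, at the low end of the ΔEcad females. On the scale of mean log2 CPM, its score was -2.64 for the shared genes (next lowest 3.53), -3.36 for the resident-like genes (2.03), -3.59 for the monocyte-like genes (0.77) and 0.42 for the activated genes (5.15). Among single genes, in log2 CPM, Adgre1 was at -5.19 (next lowest 1.2), C1qa at -5.19 (5.27), Ccr2 at -5.19 (-0.28), Mrc1 at -1.97 (2.35), Cd68 at 1.1 (5.1) and Apoe at 6.15 (9.88). The value of -5.19 is that of a gene with no count.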

How the results depend on the processing

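Of 775 alternative values, 744 kept their side of the threshold or, for counts and medians, stayed within the limits set for them. The limit for a median was a shift of 1.64 on the log2 scale, the pooled SD of the tumours' scores. That is wider than every median given here, so a median could change direction and still be counted among the 744. None of 460 alternative values of single genes changed direction, and 6 of 140 medians did. The single genes were the members with an unadjusted p under 0.05 in the main fit of a comparison, and Cebpa. They were chosen by these same differences, so a kept direction is little of a test. The other members were not followed in this way. The median in females became -0.02 without ΔEcad female 5 and -0.09 with keratinocyte and melanocytic covariates. That of the interaction became 0.3 with limma, 0.31 without Ecad female 7, 0.06 without ΔEcad male 4 and 0.04 without ΔEcad male 7. With DESeq2, 2 members were called between the sexes in Ecad tumours and 1 in the interaction, and with limma 1 between the sexes in Ecad tumours. When each tumour was left out in turn, 0 to 1 members were called in the interaction and 0 in the other 4 comparisons. The median of the members was then between -0.02 and 0.76 in females, 0.23 and 0.94 in males, -1.23 and -0.3 between the sexes in Ecad, -1.11 and -0.62 in ΔEcad, and -0.57 and 0.31 in the interaction. With 1 tumour left out, 27 to 30 members followed Csf1r, beside 1083 to 1560 of 17716 genes. Without both ΔEcad female 3 and ΔEcad male 2, an alternative chosen after seeing the data, 0 members were called in any comparison. With the replicate number as a block, 0 members were called and the median in females was 0.37. The numbers did not pair the tumours, since 48 pairs of equal number correlated between -0.477 and 0.453 and 1 of 32 tumours correlated best with its own number. The cause of these shifts was not tested. Low genes such as Cx3cr1 rest on few counts, with a median under 1 TPM.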
